A study of Mus musculus with 6 samples.

Results

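The miR-181 family of mouse microRNAs (miRNAs) was followed across 6 small RNA libraries of embryonic stem cells through 6 mature miRNAs: mmu-miR-181a-5p, mmu-miR-181a-1-3p, mmu-miR-181b-5p, mmu-miR-181c-5p, mmu-miR-181c-3p and mmu-miR-181d-5p (mmu, for mouse, is left out below). They were taken by name from 1899 mature miRNA entries, and all 6 were among the 351 entries whose counts averaged 50 or more over the libraries. The family was chosen by its unique-match counts in these same libraries, in which the a and b members were seen to part from the c and d members, so that split is described below and is no independent evidence. miR-181a-1-3p passed the minimum mainly through 492 reads in a single library, whereas the other members were counted in every library. The 4 remaining arms of the miR-181 hairpins are given as counts only.

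A miRNA is cut from a hairpin in a longer transcript, and either arm, called 5p or 3p, can be loaded into an Argonaute protein to repress mRNAs that pair with its seed, the bases near its 5′ end. The 5p arms of miR-181a, b, c and d share a seed and so have overlapping predicted targets, while they come from separate clusters that are transcribed apart. The family is known best for its part in lymphocyte development and T cell receptor signalling and in muscle differentiation.

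The cells were embryonic stem cells of strain 129/Ola grown with serum and leukemia inhibitory factor on gelatin, either wild type (WT) or with Wt1, a transcription factor gene of kidney and gonad development, knocked out (KO). The 6 groups had 1 library each: untreated WT, WT with retinoic acid (RA, which drives stem cells to differentiate), untreated Wt1 KO, Wt1 KO given RA, and Wt1 KO with inducible Wt1 given doxycycline for 12 h or 24 h (dox, which switches the inducible gene on). RA was used at 1 µM (read so from the labels, which print the unit as a length) for a time not given in the sources used here, and dox at 1 µg/ml. The labels name neither a clone nor a promoter for the inducible gene, and no dox-treated library without it is used here, so an effect of Wt1, of dox itself and of a different clone cannot be told apart. The loss and the induction of Wt1 could not be checked, since small RNA reads do not include its mRNA.

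The 4 sequences of the 5p arms show how close the members are to each other. They are printed as deposited, 5′ to 3′ with T for U, and the capitals mark the seed, bases 2 to 8.
miR-181a-5p: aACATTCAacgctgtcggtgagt
miR-181b-5p: aACATTCAttgctgtcggtgggt
miR-181c-5p: aACATTCAacctgtcggtgagt
miR-181d-5p: aACATTCAttgttgtcggtgggt
All 4 have the seed ACATTCA. Counting from 1 at the 5′ end, miR-181a-5p and miR-181b-5p differ by the substitutions A9T, C10T and A21G. The closest pairs cross the a/b and c/d split: miR-181b-5p and miR-181d-5p differ by C12T alone, and miR-181a-5p and miR-181c-5p are 1 edit apart, their lengths being 23 and 22 bases. No read of any of the 10 miR-181 entries was counted as a multi-match (a read that matches several entries), although the number of mismatches allowed is not given in the sources used here. If mismatches were allowed, reads with an error could be counted at a near-identical member, and this was not tested. It would weigh most where a scarce member stands beside an abundant one. Examples are 15581 reads of miR-181c-5p beside 282480 of miR-181a-5p in RA-treated WT, and 107 beside 2048 in RA-treated Wt1 KO.

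The 3p arms among the members share another seed, which is shown because it also joins an a member to a c member.
miR-181a-1-3p: aCCATCGAccgttgattgtacc
miR-181c-3p: aCCATCGAccgttgagtggacc
They differ by T16G and T19G, and no other arm of the family has the seed CCATCGA.

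The 5p arms of miR-181a and miR-181b are each encoded at 2 loci, which their counts cannot separate. The hairpins of miR-181a show this, with the annotated arms in capitals: the 5p arm is identical in both, and the 3p arm is not.
Mir181a-1: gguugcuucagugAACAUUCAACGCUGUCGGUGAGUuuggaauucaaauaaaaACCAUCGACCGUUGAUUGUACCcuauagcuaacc
Mir181a-2: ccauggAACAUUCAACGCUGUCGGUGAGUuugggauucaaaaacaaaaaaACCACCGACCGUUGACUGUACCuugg
The hairpins and positions are those of RefSeq on GRCm38.p6, in which all 6 members and all 4 other arms were found by name. Mir181a-1 lies at chr1:137966455-137966541 (+ strand) and Mir181b-1 at chr1:137966639-137966718 (+), 97 bases further on, both within an exon of the lincRNA A430106G13Rik and an intron of Gm4258 on the same strand. Mir181a-2 at chr2:38852735-38852810 (+) and Mir181b-2 at chr2:38853830-38853918 (+) are 1019 bases apart, opposite in strand to an intron of Nr6a1. Mir181d at chr8:84178716-84178787 (- strand) and Mir181c at chr8:84178873-84178961 (-) are 85 bases apart in an intron of Nanos3 on the same strand. The hairpin of Mir23a, the nearest end of the miR-23a, miR-27a and miR-24-2 cluster, begins 29556 bases from Mir181c on the other strand. The arm specific to Mir181a-1, miR-181a-1-3p, is therefore the member that marks a locus of its own among the a and b members.

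Depth set the precision of each value. The libraries held from 83626 (RA-treated Wt1 KO) to 6106104 (RA-treated WT) uniquely matched reads, a 73.0-fold range, and the other 4 held 1063945 to 3629658. Levels are given as normalised CPM, which corrects for library size with factors from the trimmed mean of M values, or TMM. A count of 0 allows up to 3 counts, which equalled 0.448 normalised CPM in RA-treated WT and 27.8 in RA-treated Wt1 KO. Ratios are on the log2 scale with 95% counting intervals in brackets, and the size rule calls a miRNA higher at a log2 ratio of 1 or more and lower at -1 or less, provided that the interval excludes 0. PCR copies were not marked by molecular identifiers, so reads are not independent molecules and every interval covers counting error only, and no difference has a replicate check or a test, each group being 1 library. In bulk RNA, fewer cells that make a miRNA and less of it per cell cannot be told apart.

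miR-181a-5p, the most abundant member in 3 of the 6 libraries, had 6055 reads in untreated WT cells, 514 in untreated Wt1 KO, 746 after 12 h and 2814 after 24 h of dox, 282480 in RA-treated WT and 2048 in RA-treated Wt1 KO. In normalised CPM these were 5558, 364, 659, 827, 42196 and 18956 in the same order. It was thus high in both RA libraries, intermediate in untreated WT and low in the 3 Wt1 KO libraries without RA, with a 116-fold span and no neighbours in this order whose ratio interval included 0. It ranked between 6 and 111 among the entries by count.

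miR-181b-5p, which is processed from hairpins next to those of miR-181a, had 868, 63, 98, 362, 29968 and 265 reads, or 797, 44.6, 86.6, 106, 4476 and 2453 normalised CPM, in the same order of libraries. Its order of libraries was that of miR-181a-5p, over a 100.3-fold span, and only its 2 dox libraries did not differ beyond counting error. miR-181a-1-3p had 18 reads in untreated WT cells, 0 in untreated Wt1 KO, 1 in each dox library, 492 in RA-treated WT and 5 in RA-treated Wt1 KO. At such counts its levels, 16.5 normalised CPM in untreated WT, 73.5 in RA-treated WT and 46.3 in RA-treated Wt1 KO, separated only untreated WT from 12 h of dox among neighbours in the order.

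miR-181c-5p had 2553 reads in untreated WT cells, 2722 in untreated Wt1 KO, 3592 and 8665 at 12 h and 24 h of dox, 15581 in RA-treated WT and 107 in RA-treated Wt1 KO. These were 2343, 1929, 3173, 2547, 2327 and 990 normalised CPM, a 3.20-fold span in which untreated WT and RA-treated WT did not differ beyond counting error. miR-181d-5p, from the hairpin beside that of miR-181c, had 1881, 3536, 2343, 4958, 11826 and 62 reads, or 1727, 2506, 2070, 1457, 1767 and 574 normalised CPM. Its span was 4.37-fold, with its highest level in untreated Wt1 KO, where miR-181a-5p was lowest. miR-181c-3p, the less abundant arm of the miR-181c hairpin, had 160, 188, 236, 431, 2628 and 18 reads, or 147, 133, 209, 127, 393 and 167 normalised CPM. RA-treated WT stood above the other 5 libraries for this arm, and no neighbours among those 5 differed beyond counting error. Some further apart in the order did differ. On the log2 scale 12 h of dox stood at 0.65 [0.36 to 0.93] against untreated Wt1 KO, and 24 h at -0.72 [-0.95 to -0.48] against 12 h.

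**Figure D1:**
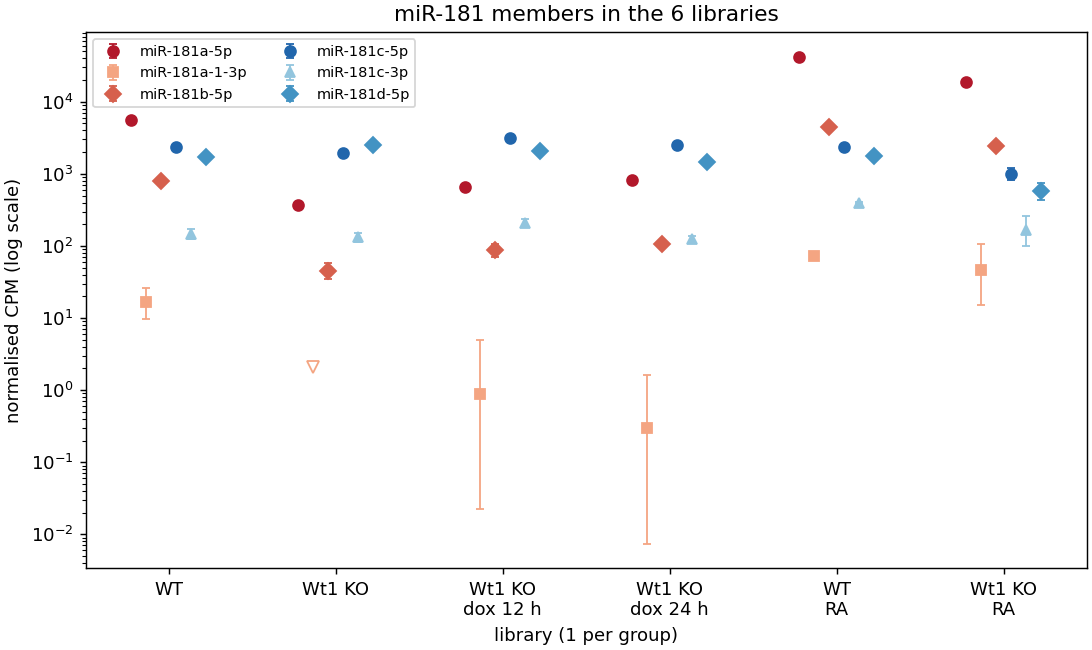
Normalised CPM (log axis) of each member in each of the 6 libraries, 1 point per library with the 95% counting interval, where the open triangle marks a count of 0 drawn at the limit of 3 counts. miR-181a-5p and miR-181b-5p span 116-fold and 100.3-fold, against 3.20-fold for miR-181c-5p and 4.37-fold for miR-181d-5p.

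The make-up of the family's 5p reads can be read within a library, with no scaling between libraries. miR-181a-5p and miR-181b-5p together made 61.0% [60.1 to 61.9, Wilson] of these reads in untreated WT cells, 8.44% [7.81 to 9.12] in untreated Wt1 KO, 12.5% [11.7 to 13.3] and 18.9% [18.3 to 19.5] at 12 h and 24 h of dox, 91.9% [91.8 to 92.03] in RA-treated WT and 93.2% [92.1 to 94.1] in RA-treated Wt1 KO. The c and d members therefore held most of the family's 5p reads in the 3 Wt1 KO libraries without RA, and the a and b members in the other 3. The number of a and b reads per c and d read ran from 0.0922 to 13.7, a 148-fold range. miR-181d-5p alone made 51.7% in untreated Wt1 KO and 2.498% in RA-treated Wt1 KO.

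**Figure D2:**
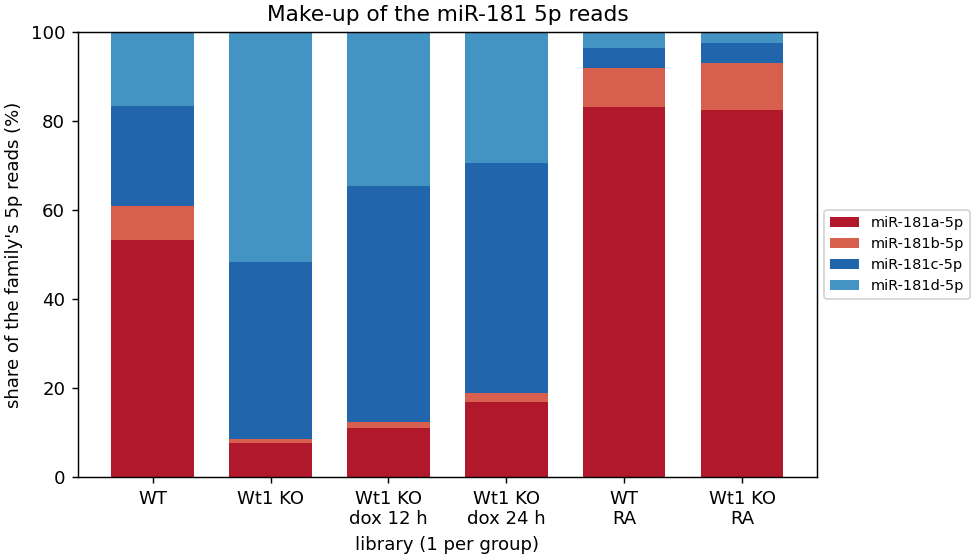
Share (%) of the 5p reads of the family held by miR-181a-5p, miR-181b-5p, miR-181c-5p and miR-181d-5p in each library, 1 stacked bar per library. The a and b members make 61.0% in untreated WT cells, 8.44% in untreated Wt1 KO and over 91% in both RA libraries.

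Members from neighbouring hairpins kept closer proportions. Reads of miR-181a-5p per read of miR-181b-5p were 6.98 [6.50 to 7.499] in untreated WT cells, 8.16 [6.27 to 10.8] in untreated Wt1 KO, 7.61 and 7.77 at 12 h and 24 h of dox, 9.43 [9.31 to 9.54] in RA-treated WT and 7.73 [6.80 to 8.82] in RA-treated Wt1 KO, a 1.35-fold range. RA-treated WT was the highest, and its interval did not overlap that of untreated WT. Reads of miR-181c-5p per read of miR-181d-5p ranged 2.27-fold, from 0.770 [0.732 to 0.809] in untreated Wt1 KO to 1.75 [1.69 to 1.81] after 24 h of dox. Only in untreated Wt1 KO did miR-181d-5p outnumber miR-181c-5p, and the ratio was 1.36 in untreated WT, 1.53 after 12 h of dox, 1.32 in RA-treated WT and 1.73 in RA-treated Wt1 KO. Ligation of adapters favours some ends over others, so a ratio between 2 miRNAs in a library is less telling than its change between libraries.

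The arms of the miR-181c hairpin were in another proportion in the RA libraries. Reads of miR-181c-5p per read of miR-181c-3p were 16.0 [13.6 to 18.8] in untreated WT cells, 14.5 [12.5 to 16.9] in untreated Wt1 KO, 15.2 [13.3 to 17.4] and 20.1 [18.2 to 22.2] at 12 h and 24 h of dox, 5.93 [5.69 to 6.18] in RA-treated WT and 5.94 [3.59 to 10.4] in RA-treated Wt1 KO. The 2 RA libraries were the lowest and their intervals overlapped none of the other 4. In RA-treated Wt1 KO the ratio rests on 18 reads of the 3p arm.

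**Figure D3:**
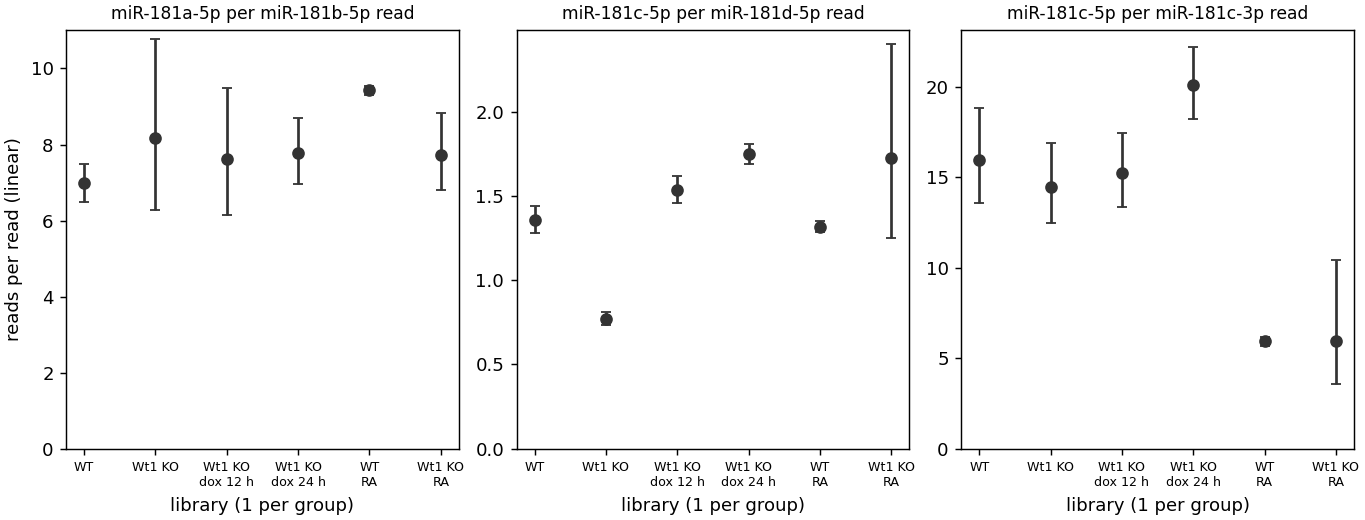
Reads of a miRNA per read of its partner (linear axis from 0) in each library, 1 point per library with the 95% counting interval, for miR-181a-5p per miR-181b-5p, miR-181c-5p per miR-181d-5p and miR-181c-5p per miR-181c-3p. The first panel ranges 1.35-fold, the middle panel is lowest in untreated Wt1 KO at 0.770, and the last is near 5.9 in both RA libraries.

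The remaining arms of the hairpins were scarce. miR-181d-3p had 10, 14, 6, 4, 72 and 0 reads in untreated WT, untreated Wt1 KO, 12 h dox, 24 h dox, RA-treated WT and RA-treated Wt1 KO. miR-181a-2-3p had 1 read after 12 h of dox and 8 in RA-treated WT, miR-181b-2-3p had 6 reads in RA-treated WT, and neither had a read in the other libraries. miR-181b-1-3p had no read in any library. The deposited entry of miR-181a-2-3p starts 3 bases inside the arm annotated by RefSeq, so its few reads are not comparable with those of miR-181a-1-3p and no share of miR-181a-5p was assigned to either locus.

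The untreated libraries ask which members differ between Wt1 KO and WT cells. miR-181a-5p was 15.3-fold lower in the Wt1 KO library (-3.93 [-4.06 to -3.80]) and miR-181b-5p 17.8-fold lower (-4.15 [-4.55 to -3.79]). miR-181a-1-3p, with 18 reads against 0, was 7.77-fold lower with the 0 set to 3 counts, and its log2 interval ended at -2.51. miR-181c-5p (-0.28 [-0.36 to -0.20]) and miR-181c-3p (-0.14 [-0.45 to 0.17]) were within the size rule, and miR-181d-5p was 0.54 [0.46 to 0.62] higher, also within it. So 3 of 6 members were lower and 0 higher, beside 15.4% of the 351 miRNAs lower and 12.3% higher. The members were picked on the counts of all 6 libraries, so nothing is read from the number of members called here or in the later comparisons. Among all 351 miRNAs 43 were higher and 54 lower with TMM scaling, against 24 and 78 as CPM of the total and 25 and 76 as CPM without the stem cell miRNA clusters miR-290 and miR-302, which moved the median of all miRNAs by -0.36 and -0.35. The members' median was -2.11, or -1.62 with the count of 0 at its bound, and that of all miRNAs 0.11.

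In WT cells RA asks what differentiation does to the family. miR-181a-5p was 7.59-fold higher with RA (2.92 [2.89 to 2.96]), miR-181b-5p 5.62-fold (2.49 [2.39 to 2.59]) and miR-181a-1-3p 2.12 [1.48 to 2.92] on the log2 scale. miR-181c-5p (-0.01 [-0.07 to 0.05]) and miR-181d-5p (0.03 [-0.04 to 0.10]) were near 0, with a sign that depends on the scaling, and miR-181c-3p was higher by 1.41 [1.19 to 1.66]. The arms of the miR-181c hairpin therefore differed in this comparison. In all 4 members were higher and 0 lower, beside 22.2% and 24.2% of the 351 miRNAs. The members' median was 1.76 against 0.13 for all miRNAs. Among the 4, miR-181a-1-3p passed the minimum mean count mainly through its 492 reads in this RA library. Nothing is read from the members' number or median. Scaling as CPM without the stem cell clusters moved the median of all by -0.14. The pairs that are nearly identical in sequence lay far apart: miR-181a-5p was 7.59-fold higher and miR-181c-5p 0.993-fold, and miR-181b-5p was 5.62-fold higher and miR-181d-5p 1.02-fold.

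The same treatment in Wt1 KO cells gave larger ratios for the a and b members, from a lower starting level. miR-181a-5p was 52.0-fold higher with RA (5.70 [5.56 to 5.84]) and miR-181b-5p 54.9-fold (5.77 [5.38 to 6.20]). miR-181a-1-3p, with 5 reads against 0, was 21.8-fold higher with the 0 set to 3 counts, and its log2 interval began at 3.58. miR-181d-5p was 4.37-fold lower (-2.12 [-2.51 to -1.76]), and miR-181c-5p at -0.96 [-1.25 to -0.68] lay just inside the size rule. miR-181c-5p passed the rule when multi-matches were added, which changed the scaling factors but none of its reads. As CPM of the total it stood at -0.26 [-0.56 to 0.01], and without the stem cell clusters at -0.38 [-0.68 to -0.11]. miR-181c-3p stood at 0.36 [-0.46 to 1.02], but as CPM of the total it was higher, at 1.05 [0.23 to 1.72]. Thus with TMM 3 members were higher and 1 lower, beside 23.6% and 22.5% of all miRNAs. The split of all miRNAs was 83 higher and 79 lower with TMM, 126 and 33 as CPM of the total and 116 and 41 as CPM without the stem cell clusters, and these scalings moved the median of all by 0.70 and 0.57, and DESeq2's factors by 0.17. The members' median was 3.03, or 2.40 with the count of 0 at its bound, against -0.05.

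The difference of the RA response between the genotypes, Wt1 KO minus WT, was 2.78 [2.63 to 2.92] for miR-181a-5p, 3.28 [2.87 to 3.69] for miR-181b-5p, -0.95 [-1.23 to -0.66] for miR-181c-5p, -1.06 [-1.78 to -0.33] for miR-181c-3p and -2.15 [-2.52 to -1.78] for miR-181d-5p. The a and b members had the larger response in the Wt1 KO libraries, and the c and d members a lower one with TMM. For miR-181a-1-3p, with 0 reads in untreated Wt1 KO, the value depends on the prior count and is left out. With scaling as CPM of the total the differences of miR-181c-5p and miR-181d-5p were -0.35 and -1.55. That of miR-181c-3p was -0.46 [-1.19 to 0.27] so scaled and -0.34 [-1.07 to 0.39] without the stem cell clusters, and that of miR-181c-5p without them was -0.23 [-0.51 to 0.06], so these were no longer beyond counting error.

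With RA present, Wt1 KO against WT asks whether the genotypes still differ. miR-181a-5p was lower in the Wt1 KO library by -1.15 [-1.22 to -1.09], miR-181c-5p by -1.23 [-1.52 to -0.96], miR-181c-3p by -1.20 [-1.99 to -0.57] and miR-181d-5p by -1.61 [-2.01 to -1.26]. miR-181b-5p (-0.87 [-1.05 to -0.69]) and miR-181a-1-3p (-0.53 [-2.30 to 0.57]) were within the size rule. The a and b members, 15.3-fold and 17.8-fold lower without RA, thus lay nearer to WT with RA, and the ratios of the 6 members ran from -1.61 to -0.53. In all 4 members were lower and 0 higher, beside 19.1% and 18.8% of all miRNAs, and the medians were -1.18 and 0.03. Of these 4 only miR-181d-5p was lower under all 6 alternatives of scaling, counts, prior count and carry-over: miR-181a-5p, miR-181c-5p and miR-181c-3p were within the rule as CPM of the total and as CPM without the stem cell clusters, miR-181a-5p also with DESeq2's factors. All miRNAs split 66 higher and 67 lower with TMM, 82 and 42 as CPM of the total, 80 and 47 with DESeq2's factors and 93 and 37 without the clusters, with shifts of the median of 0.24, 0.20 and 0.37.

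Reads carried over from the deepest to the shallowest library would matter in this pair. A 95% upper limit on the share of such reads in RA-treated Wt1 KO was taken from each of 168 miRNAs. These had at least 1000 reads in RA-treated WT. The lowest limit, 12.3%, came from miR-335-3p with 9325 and 8 reads and is used as the carry-over bound. That much would equal 23.3% of the reads of miR-181a-5p there, 19.1% of those of miR-181b-5p, 24.6% of miR-181c-5p and 32.2% of miR-181d-5p. Being the lowest of many limits, this bound can be too low and is no firm maximum. From the 54 miRNAs with at least 10000 reads in RA-treated WT it was 16.0%. That would equal 30.2% of the reads of miR-181a-5p and 41.8% of those of miR-181d-5p. Whether any reads were carried over was not tested.

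**Figure D4:**
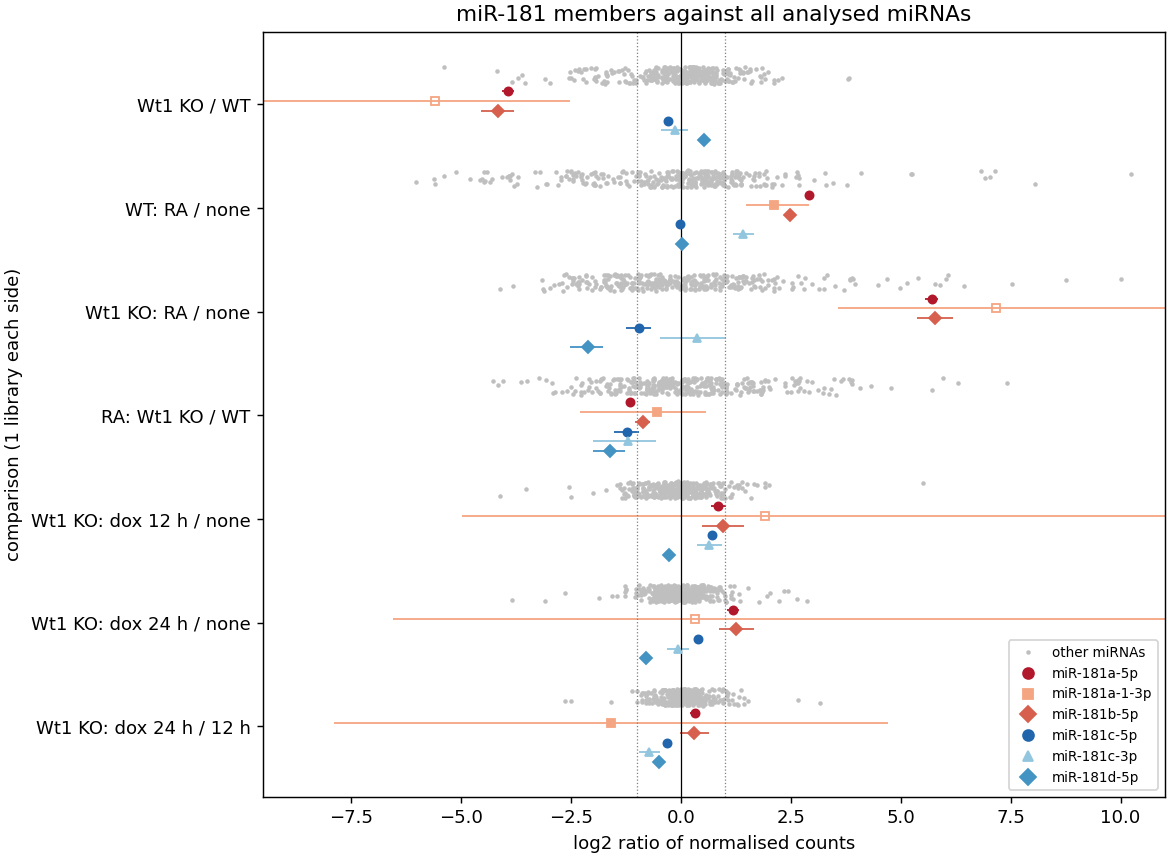
Log2 ratio of normalised counts in the 7 comparisons, 1 library on each side, for the 6 members (coloured, with 95% counting intervals, open where a library had 0 reads) and the other analysed miRNAs (grey), with dotted lines at -1 and 1. The a and b members lie near -4 in untreated Wt1 KO against WT and above 5 for RA in Wt1 KO, where miR-181d-5p lies at -2.12.

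The dox libraries ask what follows when Wt1 is induced in Wt1 KO cells, and both are set against the same untreated Wt1 KO library. After 12 h miR-181a-5p stood at 0.86 [0.69 to 1.02], miR-181b-5p at 0.95 [0.48 to 1.44], miR-181c-5p at 0.72 [0.65 to 0.79], miR-181c-3p at 0.65 [0.36 to 0.93] and miR-181d-5p at -0.28 [-0.35 to -0.20], and miR-181a-1-3p had 1 read against 0. No member passed the size rule, beside 4.27% of all miRNAs higher and 8.55% lower, but miR-181a-5p, miR-181b-5p and miR-181c-5p passed it as CPM without the stem cell clusters, with values up to 1.18, 1.28 and 1.05. The sign of miR-181d-5p turned under that scaling, at 0.05. All miRNAs split 15 higher and 30 lower with TMM, 35 and 13 as CPM of the total, 22 and 23 with DESeq2's factors and 44 and 9 without the clusters, and the CPM scalings moved the median of all by 0.21 and 0.33. The members' median was 0.79 against -0.08.

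After 24 h miR-181a-5p was 2.27-fold higher (1.18 [1.05 to 1.32]) and miR-181b-5p 2.38-fold (1.24 [0.86 to 1.66]) than in untreated Wt1 KO. miR-181c-5p stood at 0.40 [0.34 to 0.46], miR-181c-3p at -0.07 [-0.32 to 0.18] and miR-181d-5p at -0.78 [-0.84 to -0.72], and the sign of miR-181c-3p depends on the scaling. So 2 members were higher and 0 lower, beside 5.7% and 3.7% of all miRNAs, with medians of 0.36 and -0.01. All miRNAs split 20 and 13 with TMM, 31 and 10 as CPM of the total and 37 and 6 without the clusters, with shifts of the median of 0.23 and 0.31. Even so, untreated WT was 2.75 [2.68 to 2.81] above the 24 h library for miR-181a-5p and 2.90 [2.73 to 3.09] for miR-181b-5p. Between 12 h and 24 h no member passed the rule, beside 4.27% of all miRNAs higher and 1.14% lower: miR-181a-5p stood at 0.33 [0.21 to 0.45], miR-181b-5p at 0.29 [-0.03 to 0.63], miR-181c-5p at -0.32 [-0.37 to -0.26], miR-181c-3p at -0.72 [-0.95 to -0.48] and miR-181d-5p at -0.51 [-0.58 to -0.43]. The members' median there was -0.41 against 0.07.

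Summed over the 4 members with the shared 5p seed, the family's level was 10425 normalised CPM in untreated WT cells, 4844 in untreated Wt1 KO, 5989 and 4938 at 12 h and 24 h of dox, 50766 in RA-treated WT and 22973 in RA-treated Wt1 KO. No other entry of the files has that seed. The sum varied less than miR-181a-5p, since miR-181c-5p and miR-181d-5p made up most of it in the 3 Wt1 KO libraries without RA. As a share of all reads it was 1.07%, 0.386%, 0.552%, 0.463%, 5.57% and 2.97% in the same order.

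The miRNAs most like miR-181a-5p over the 6 libraries, by Pearson's r on log2 normalised CPM, were miR-133a-3p (r = 0.995), miR-203-3p (0.985), miR-125b-5p (0.973), miR-200a-5p (0.968) and miR-125b-1-3p (0.965). miR-133a-3p, a miRNA of muscle, had 118, 12, 13, 45, 2830 and 24 reads in untreated WT, untreated Wt1 KO, 12 h dox, 24 h dox, RA-treated WT and RA-treated Wt1 KO. Most like miR-181d-5p were miR-93-3p (0.977), miR-485-5p (0.976), miR-425-3p (0.950), miR-183-3p (0.938) and miR-1306-5p (0.935). Those profiles are nearly flat but for RA-treated Wt1 KO, where the 5 miRNAs had 3, 13, 0, 16 and 1 reads. Among the members, r was 0.999 between miR-181a-5p and miR-181b-5p, 0.809 between miR-181c-5p and miR-181d-5p and -0.55 between miR-181a-5p and miR-181d-5p. All these values describe the same 6 libraries, share their depths and were not tested.

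**Figure D5:**
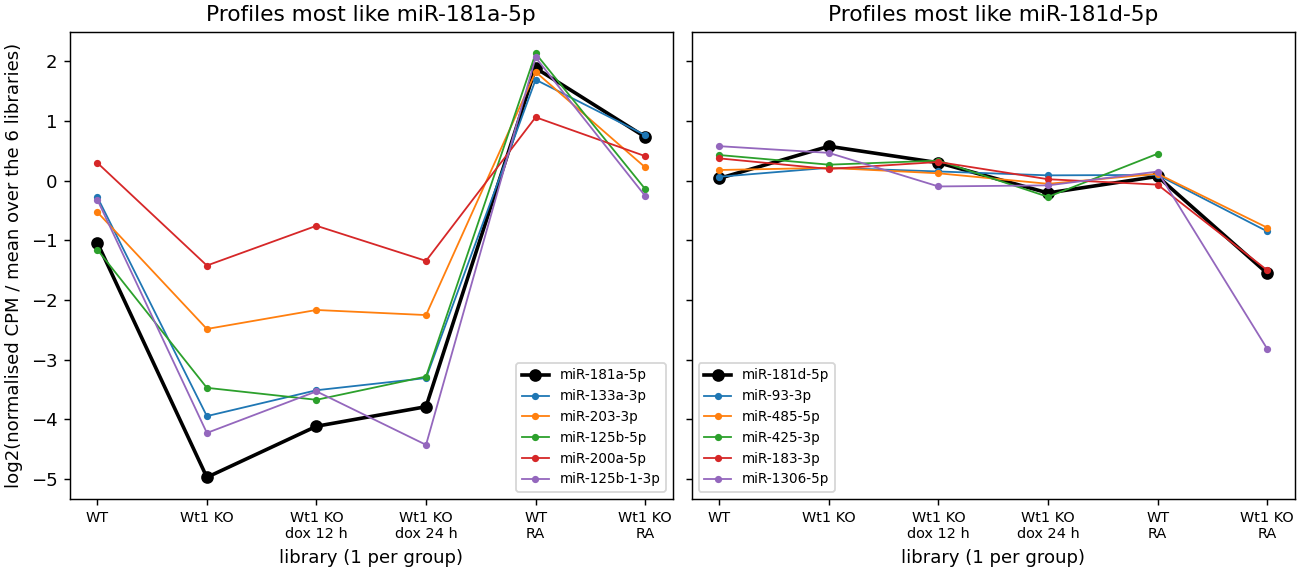
Log2 of normalised CPM over its mean in the 6 libraries, 1 line per miRNA, for miR-181a-5p (left, black) and miR-181d-5p (right, black) with the 5 miRNAs of the highest Pearson r for each. The left profiles are lowest in the 3 Wt1 KO libraries without RA and highest in RA-treated WT, the right ones lowest in RA-treated Wt1 KO, where miR-425-3p has 0 reads and no point. On the left, the compared miRNAs other than miR-125b-5p passed the minimum mean count only through RA-treated WT.

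The cluster nearest to miR-181c and miR-181d had 4 measured members of 6. The name of miR-24-3p carries no locus number, unlike that of miR-24-2-5p, and whether all its reads come from this cluster was not tested. In untreated Wt1 KO against WT 2 were lower and 0 higher, miR-27a-3p at -1.10 [-1.34 to -0.87] and miR-24-2-5p at -1.02 [-1.56 to -0.50], beside 15.4% of all miRNAs lower, and the median was -0.63 against 0.11 for all. With RA in WT 3 were lower, beside 24.2% of all, among them miR-23a-3p at -1.43 [-1.59 to -1.26] and miR-27a-3p at -1.83 [-2.005 to -1.64], and the median was -1.22 against 0.13. With RA in Wt1 KO 2 were lower, miR-23a-3p and miR-24-3p, beside 22.5% of all, with a median of -1.38 against -0.05. As CPM of the total these RA counts were 2 and 1. RA-treated Wt1 KO held only 1 read of miR-24-2-5p and 11 of miR-27a-3p, whose intervals with RA in Wt1 KO included 0. In Wt1 KO against WT under RA 1 was lower, miR-24-3p, beside 19.1% of all, and none without the stem cell clusters. After 12 h of dox 1 was lower, again miR-24-3p, beside 8.55% of all, but under both CPM scalings none was lower and 1 was higher. None passed in the other comparisons.

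Lists of miRNAs with roles shared with miR-181 gave few measured members. Of 6 muscle miRNAs only miR-133a-3p was measured, lower in untreated Wt1 KO (-3.62 [-4.66 to -2.81]) and higher with RA in WT (1.96 [1.70 to 2.24]) and in Wt1 KO (4.68 [3.65 to 5.84]). It passed the rule in no other comparison. Its 2830 reads in RA-treated WT alone took it past the minimum mean count, so nothing is read from its being higher there. Of 10 blood miRNAs 5 were measured. The lymphocyte miRNA miR-150-5p was higher in untreated Wt1 KO, at 1.83 [1.73 to 1.94], and lower with RA in WT, at -3.79 [-3.97 to -3.62], and in Wt1 KO, at -3.82 [-4.53 to -3.25]. These signs are opposite to those of miR-181a-5p, whereas at 12 h and 24 h of dox miR-150-5p stood at 0.51 [0.45 to 0.57] and 0.14 [0.09 to 0.19], of the same sign as miR-181a-5p. The endothelial miRNA miR-126a-5p was higher in untreated Wt1 KO, at 1.58 [0.69 to 2.68], and with RA in Wt1 KO, at 2.24 [1.32 to 3.03].

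By count, 2 of the 5 blood miRNAs were higher and 0 lower in untreated Wt1 KO against WT, beside 12.3% and 15.4% of all miRNAs. With RA in WT 0 were higher and 1 lower, beside 22.2% and 24.2%, and with RA in Wt1 KO 1 and 1, beside 23.6% and 22.5%, so the RA counts are near those of all miRNAs. In Wt1 KO against WT under RA 2 were higher and 0 lower, beside 18.8% and 19.1%, and 3 were higher under each other scaling. After 12 h of dox 0 were higher and 1 lower, beside 4.27% and 8.55%, which turned to 1 and 0 under each other scaling. After 24 h none passed, and between the times 1 was higher, beside 4.27%.

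Of the miRNAs that accompany differentiation, 6 of 7 measured let-7 entries were higher with RA in WT, beside 22.2% of all miRNAs, and 4 with RA in Wt1 KO, beside 23.6% (5 under the CPM scalings). Among the 6, let-7b-5p passed the minimum mean count only through 282 reads in RA-treated WT, so nothing is read from its call there. RA-treated Wt1 KO held only 1 read of let-7b-5p and 10 of let-7i-5p, whose intervals with RA in Wt1 KO included 0. The numbers called in WT and in Wt1 KO are therefore not comparable. let-7c-5p stood at 2.69 [2.58 to 2.80] and 1.36 [1.16 to 1.56], and the list's medians were 1.93 and 1.36 against 0.13 and -0.05 for all. In untreated Wt1 KO let-7e-5p was lower, at -2.35 [-2.63 to -2.08], alone in its list with TMM scaling, beside 15.4% of all, and with 1 more entry lower under the CPM scalings. After 12 h of dox 2 let-7 entries were lower (1 under the CPM scalings), beside 8.55% of all, after 24 h 1 was higher, beside 5.7%, and between the times 3 were higher, beside 4.27%.

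Of 4 measured HOX cluster miRNAs 3 were higher with RA in WT, beside 22.2% of all miRNAs, and 3 in Wt1 KO, beside 23.6% (4 under the CPM scalings), with miR-10a-5p higher by 10.23 and 7.52. Another of those higher in WT, miR-615-3p, passed the minimum mean count only through 25748 reads in RA-treated WT, so nothing is read from its call there. In Wt1 KO against WT under RA 3 were lower and 1 higher, beside 19.1% and 18.8%. In untreated Wt1 KO 1 was higher, miR-196a-5p, beside 12.3%, and 1 was also lower under the CPM scalings. After 24 h of dox 1 was higher and 1 lower, beside 5.7% and 3.7%, and none was lower without the stem cell clusters. Between the times 1 was higher, beside 4.27%.

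Of 3 measured neural miRNAs 2 were higher in untreated Wt1 KO, beside 12.3% of all, and 1 under the CPM scalings. With RA 1 was lower in each genotype, beside 24.2% in WT and 22.5% in Wt1 KO. For Wt1 KO 1 was higher as well with DESeq2's factors, and 0 were lower and 1 higher under the CPM scalings. In Wt1 KO against WT under RA 1 was higher, beside 18.8%, and none passed in the dox comparisons.

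All 8 stem cell miRNAs were lower with RA in WT, beside 24.2% of all miRNAs, and 4 in Wt1 KO, beside 22.5%, a count that was 2 with DESeq2's factors and 1 under the CPM scalings. miR-302a-3p, miR-302b-3p and miR-302d-3p had 0, 1 and 7 reads in RA-treated Wt1 KO, and their intervals with RA there included 0. miR-291a-3p, with 196 reads, stood at -0.67 [-0.89 to -0.46]. Depth thus limits the calls in Wt1 KO, and the numbers called in WT and in Wt1 KO are not comparable. In untreated Wt1 KO 3 were lower (4 under the CPM scalings), beside 15.4%, and in Wt1 KO against WT under RA 6 were higher, beside 18.8%. At 12 h of dox 2 were higher (4 under the CPM scalings), beside 4.27%, at 24 h 4, beside 5.7%, and between these times 2, beside 4.27%, with 1 lower without the stem cell clusters.

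Markers of the labelled cell type and of other types give a further measure of what the libraries held. The 5 embryonic stem cell markers of the miR-290 cluster summed to 97652 to 174998 normalised CPM in the 4 libraries without RA, 5006 in RA-treated WT and 47529 in RA-treated Wt1 KO, and none was at 0. The RA libraries, where the a and b members were highest, thus had the lowest sums. Of 3 muscle markers miR-1a-3p and miR-206-3p were at 0 in all 6 libraries, and the sum, all from miR-133a-3p, was 8.50 to 13.2 in Wt1 KO without RA, 108 in untreated WT, 423 in RA-treated WT and 222 in RA-treated Wt1 KO. The 5 entries of fibroblast and mesenchyme markers summed to 2668 in untreated WT, 831 to 1161 in Wt1 KO without RA, 1519 in RA-treated WT and 5591 in RA-treated Wt1 KO, with miR-214-3p at 0 in the 3 Wt1 KO libraries without RA and miR-145a-5p at 0 in RA-treated Wt1 KO. These sums moved in part with miR-181a-5p, and their part in its levels was not tested. The 5 blood markers summed to 59.9 to 4200, nearly all of it from miR-150-5p, with miR-223-3p and miR-451a at 0 in every library. miR-142a-3p was also at 0 in untreated WT, RA-treated WT and RA-treated Wt1 KO. The 3 neuron markers summed to 196 to 476, and the 3 endoderm and liver markers to 100.1 to 273, with miR-122-5p at 0 in the 4 libraries without RA.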

How the data were processed

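Small RNA of 6 groups of mouse embryonic stem cells, 1 library each, was sequenced. Per the labels' protocols, the gel bands of miRNA and of somewhat longer small RNA were both excised. The deposited files list a read count for each mature miRNA, of unique matches or of multi-matches per the file headers. How reads were aligned and filtered, with how many mismatches and to which genome build or miRBase release, is not given in the sources used here. Unique-match counts were used as deposited. Of 1899 entries 701 had no read, and the 351 with a mean count of at least 50 were analysed. Since counts were not scaled for this mean, the deepest library weighs most.

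Counts were scaled by TMM (edgeR 4.0.16, R 4.3.3), with factors of 1.02, 0.798, 0.922, 0.937, 1.10 and 1.29 for untreated WT, untreated Wt1 KO, 12 h dox, 24 h dox, RA-treated WT and RA-treated Wt1 KO. Log2 ratios used a prior count of 0.5 per library. Intervals at 95% are exact conditional binomial for ratios, Poisson for levels, Wilson for shares and by the delta method for differences of ratios. Where a library had 0 reads, the fold takes 3 counts for it and the other library's count as exact, so it is no lower limit. With 1 library per group, no test between groups was made. The ratio and its interval were tested on simulated data. These were Poisson counts drawn with the library sizes that the intervals assume. PCR copies, biological spread and errors of scaling were left out, so the simulation says nothing of them. Alternatives were CPM of the total, DESeq2 1.42.0 size factors, CPM after removal of the miR-290 and miR-302 clusters, added multi-matches, a minimum mean count of 10, 200 or none, and a prior count of 2. TMM without the Wt1 KO library with RA, and removal of reads at the carry-over bound, were chosen after seeing the data.

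The members and lists were chosen with earlier results of these data known. Named miRNAs are the members, the other arms, list members past the size rule (up to 4 per list and comparison, by mean count) and the 5 most like miR-181a-5p and miR-181d-5p. miR-335-3p and list members named otherwise were chosen after their values were seen. Sequences of hairpins are from RefSeq and gene overlaps from GENCODE, both on GRCm38.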

Additional observations from a re-analysis of the deposited data

Results flagged for a closer look

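miR-181d-5p differed in its RA response between the genotypes, with a difference of -2.15 on the log2 scale (Wt1 KO minus WT). It stood at 0.03 [-0.04 to 0.10] with RA in WT and at -2.12 [-2.51 to -1.76] in Wt1 KO, where the RA library held 62 of its reads. The sign of the WT value depends on the scaling. With 1 library per group the difference was not tested.

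miR-181c-3p differed between the dox times, both set against the same untreated Wt1 KO library, by -0.72 on the log2 scale (24 h minus 12 h). It stood at 0.65 [0.36 to 0.93] after 12 h and at -0.07 [-0.32 to 0.18] after 24 h, and the sign of the later value depends on the scaling. This difference was not tested either.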

How the results depend on the processing

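No called ratio of a member changed its direction. The members' median moved with scaling and filter: for untreated Wt1 KO against WT to -2.47 as CPM of the total, -2.45 as CPM with the miR-290 and miR-302 clusters removed (below, without the clusters) and -0.29 at a minimum mean count of 200, for RA in WT to 1.86, 1.62 and 1.31, and for RA in Wt1 KO to 3.72, 3.60 and 0.29. At a minimum of 200 miR-181a-1-3p is no longer analysed, which leaves 5 members. For Wt1 KO against WT under RA the median was -0.81 without the clusters and -1.60 with no minimum, for dox 12 h 1.00 as CPM of the total and 1.12 without the clusters, and for dox 24 h 0.59, 0.67 and, with a prior count of 2, 0.16. With RA in Wt1 KO 4 members were higher as CPM of the total. The number of members lower there was 2 with multi-matches added, at minimums of 10 and 200, with none, and with reads at the carry-over bound removed. In Wt1 KO against WT under RA it was 1 as CPM of the total and without the clusters. The number higher after 12 h of dox was 2 as CPM of the total, 1 with DESeq2's factors, 3 without the clusters, 1 at a minimum of 10 and 1 with none. Among all miRNAs, fewer or more being tested, 53 passed for untreated Wt1 KO at a minimum of 200 (97 at 50). For RA in WT 102 passed at 200 and 276 with none (163). For dox 12 h 73, 23 and 83 passed at 10, 200 and none (45), for dox 24 h 62, 18 and 77 (33), and between the times 37, 11 and 46 (19). The difference of the RA response was 3.37 for miR-181a-5p, 3.88 for miR-181b-5p, -0.35 for miR-181c-5p, -0.46 for miR-181c-3p and -1.55 for miR-181d-5p as CPM of the total, and 3.49, 3.998, -0.23, -0.34 and -1.43 without the clusters. For miR-181a-5p it was 3.03 with DESeq2's factors and 2.58 with carry-over reads removed. These alternatives of the difference, and a bound on carry-over from miRNAs with at least 10000 reads, which was 16.0%, were chosen after seeing the data. Beyond the scaling, filter or reads that define each setting, the cause of these changes was not tested. In all, 242 such values moved by less than the set limits and 51 by more. The limit for a count was a fold, so 4 members higher instead of 3 stayed within it. The 242 include shares of the 5p reads, which added multi-matches could not change. No paired analysis was possible because each group has 1 library and the labels give no replicate numbers, and for the same reason no replicate could be left out. Depth limits most what is said of RA-treated Wt1 KO and of miR-181a-1-3p.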
